A study of Mus musculus with 9 samples.

Results

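The genes Gask1b, Homer2, Pde2a, Slc44a2 and Srpx2 were followed through the mouse mammary tumours of this series, 5 out of 14108 genes listed and 14086 tested. They were chosen by rank. They stood among the 200 smallest p-values when LM1 and LM9 tumours together were compared with HR1 tumours. They also stood among the first 200 genes listed for tumourspheres, which are cells grown as floating spheres and are not analysed here. That list may rest on another comparison, as the paper's models for it also included knockouts of the gene Nfib in LM1 and LM9. In the present fit 7 genes met both conditions, which was 3.5% of the tumour list and 3.78% of the 185 tumoursphere genes tested in tumours, and the 5 genes described here are among these 7; the other two were Vsir and H2-Q6. Within the tumour ranking Homer2 stood at 36, Srpx2 at 58, Gask1b at 80, Slc44a2 at 111 and Pde2a at 140, and the next tumoursphere gene outside the limit was Tcn2 at rank 233. Because LM1 and LM9 against HR1 chose these genes, their differences from HR1 are given below as a description with no test, and only LM9 against LM1, which the choice did not use, was tested.

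The series holds 9 primary tumours, 3 for each of 3 transplanted cell lines. HR1 is a non-metastatic line from a mammary tumour of a mouse that carried mutant human PIK3CA, the catalytic subunit of phosphoinositide 3-kinase, under the ubiquitous CAG promoter. LM1 and LM9 are a line each from lung metastases that HR1 cells formed in NOD/SCID mice after they had received the doxycycline-inducible piggyBac transposon system, so LM1 and LM9 carry transposon insertions that the HR1 parent lacks, each stands for a single metastasis-derived line, and line, insertions and metastatic origin cannot be told apart. All 3 models were grown from 250000 cells in Matrigel and PBS in the mammary fat pads of female NOD.CB17-Prkcd<scid>/J (NOD/SCID) mice of 4 to 8 weeks, which lack T and B cells and keep their own stroma and myeloid cells, and RNA was taken from sorted GFP-positive tumour cells.

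The libraries held between 32393958 and 46681945 counts, and the tumours of 1 model resembled each other more closely in LM1 and LM9 than in HR1. Across all tested genes the correlation of log2 levels between 2 tumours of the same model was 0.991 to 0.995 in LM1, 0.994 to 0.995 in LM9 and 0.894 to 0.969 in HR1. The tumour labelled HR1 replicate 1 stood apart. Its level of Nfib, the transcription factor that the HR1 model is described as expressing at a low level, was 1343 CPM (counts scaled to a common library size with TMM factors). HR1 replicates 2 and 3 had 23.9 and 18.3 CPM. This tumour thus goes against its label for that gene, and values without it are given where they change the call or the direction of a gene or count described below. Of the cell type markers, the leukocyte list summed to 180 to 748 CPM in HR1, 150 to 162 CPM in LM1 and 197 to 236 CPM in LM9 over 11 listed genes. The higher sum in LM9 came from Cd68, which had 17.1 CPM in LM1 and 127 CPM in LM9. Without Cd68, a sum chosen after the values were seen, the other 10 genes gave 139 to 626 CPM in HR1, 133 to 146 CPM in LM1 and 61.7 to 100.6 CPM in LM9. The fibroblast list summed to 23968 to 35942 CPM in HR1, 10720.3 to 14089 CPM in LM1 and 9156 to 10708 CPM in LM9 over 10 genes. The epithelial list summed to 15.4 to 134 CPM in HR1, 159 to 183 CPM in LM1 and 15 to 18.6 CPM in LM9 over 7 genes, of which Krt14 alone had 47.3, 167 and 13.9 CPM on average, and its defining marker Epcam reached at most 4.49 CPM in any tumour although the samples are labelled as breast cancer cells. In sorted bulk RNA, fewer cells of a type and less RNA per cell cannot be told apart.

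The 5 genes belong to unrelated pathways. GASK1B is a Golgi-associated member of the secretory pathway kinases, enzymes that modify proteins on their way out of the cell. HOMER2 is a scaffold of the Homer family, which links glutamate receptors, IP3 receptors and Shank proteins and can hold NFAT factors away from the phosphatase calcineurin. PDE2A is a phosphodiesterase that breaks down both cAMP and cGMP and is activated by cGMP, which lets one messenger lower the other. SLC44A2 is a choline transporter-like protein of the plasma membrane and mitochondria, and choline is the starting point of phosphatidylcholine synthesis. SRPX2 is a secreted sushi-repeat protein that binds the urokinase receptor and is known from vessel growth and synapse formation.

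On the mouse genome (GRCm38, to which the mm10 build corresponds), RefSeq places Gask1b at chr3:79884484-79946278 on the plus strand, Homer2 at chr7:81600481-81706925 on the minus strand, Pde2a at chr7:101421691-101512829 on the plus strand, Slc44a2 at chr9:21320719-21355028 on the plus strand and Srpx2 at chrX:133908416-133932448 on the plus strand. RefSeq lists 11 transcription starts for the 5 genes, 1 each for Gask1b and Srpx2, 2 each for Homer2 and Slc44a2 and 5 for Pde2a. Of these 11 windows, 4 are shown because they hold the most and among the fewest CG dinucleotides of the 5 genes and the only match to the binding motif of NFI factors, the family of NFIB. Each runs over the 250 bases before a start, 5′ to 3′ on the strand of the gene, from the RefSeq table for GRCm38.p6, and the first 3 have CG dinucleotides in capitals.
Homer2, chr7:81706926-81707175: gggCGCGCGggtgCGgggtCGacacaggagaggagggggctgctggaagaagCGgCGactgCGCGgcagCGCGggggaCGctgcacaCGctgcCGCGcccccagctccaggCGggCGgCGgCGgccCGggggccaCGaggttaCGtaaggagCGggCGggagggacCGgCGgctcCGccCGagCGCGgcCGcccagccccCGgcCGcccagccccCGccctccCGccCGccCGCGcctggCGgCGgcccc
Gask1b, chr3:79885680-79885929: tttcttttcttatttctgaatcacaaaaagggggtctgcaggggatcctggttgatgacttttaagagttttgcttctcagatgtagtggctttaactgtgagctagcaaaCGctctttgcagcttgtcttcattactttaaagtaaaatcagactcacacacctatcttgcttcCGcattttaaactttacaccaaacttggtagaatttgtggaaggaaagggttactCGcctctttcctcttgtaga
Srpx2, chrX:133908175-133908424: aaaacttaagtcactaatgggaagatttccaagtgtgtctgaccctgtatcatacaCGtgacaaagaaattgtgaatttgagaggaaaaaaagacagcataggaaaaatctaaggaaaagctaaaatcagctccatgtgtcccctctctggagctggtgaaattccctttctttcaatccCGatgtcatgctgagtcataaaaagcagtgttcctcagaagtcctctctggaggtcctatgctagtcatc
The Homer2 window held 40 CG dinucleotides and 83.2% G and C, and 98.7% of the 32851 starts in the table had fewer. Gask1b held 3 CG dinucleotides and Srpx2 held 2, below the median of 6 over all starts. The other Homer2 start, inside the gene, also held 3. Counts over the union of exons do not tell which start a transcript used.

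The short element bound by NFI factors, TTGGC or its complement GCCAA, stood in 1 of the 11 windows and in 41.5% of all 32851, and the palindromic pair of such elements (TGGC, 5 bases, GCCA, the same on both strands) stood in 0 of the 11 and in 0.703% of all. The window that held it lies before the second start of Slc44a2, and the elements are in capitals, at positions -88 and -15 from the start.
Slc44a2, chr9:21337578-21337827: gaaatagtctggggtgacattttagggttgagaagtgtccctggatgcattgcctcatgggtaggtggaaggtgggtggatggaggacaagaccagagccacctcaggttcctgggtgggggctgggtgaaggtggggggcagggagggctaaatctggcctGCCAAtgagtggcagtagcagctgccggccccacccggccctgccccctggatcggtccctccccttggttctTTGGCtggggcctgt
A match of letters is a description and not a bound site, and the absence of one says only that these letters are not in these windows.

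Homer2 was close to undetected in HR1. It had 0, 1 and 1 counts in the 3 HR1 tumours. The LM1 tumours had 2.46, 1.83 and 1.75 CPM, and the LM9 tumours 17.5, 31.7 and 22.7 CPM. The 3 models did not overlap, in the order HR1, LM1, LM9. Homer2 was 11.9-fold higher in LM9 than in LM1 (log2 fold change 3.57 ± 0.34 SE, adjusted p = 0.00058, edgeR quasi-likelihood test with Benjamini-Hochberg adjustment over 14086 genes). Against the 2 counts of all HR1 tumours, the summed counts gave a ratio of 115.4 for LM1 (95% exact counting interval 31.6 to 958) and of 1350 for LM9 (373 to 11151), intervals that cover counting error only. An antisense gene, Gm44570, shares 525 bases (4.16%) of the Homer2 exons, and whether the counting used strand is not given in the sources used here.

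Srpx2 fell in the opposite order. The tumour labelled HR1 replicate 1 had 59.4 CPM and HR1 replicates 2 and 3 had 103 and 181 CPM. LM1 tumours had 26.9, 26.2 and 31.3 CPM, and LM9 tumours 0.408, 0.137 and 0.225 CPM, from 19, 6 and 10 counts. The 3 models again did not overlap, and the HR1 tumours spread 3.05-fold from lowest to highest where the LM1 tumours spread 1.19-fold. Srpx2 was 108-fold lower in LM9 than in LM1 (log2 fold change -6.75 ± 0.53 SE, adjusted p = 0.0004 by edgeR). From HR1, the fitted log2 difference was -2.03 for LM1 and -8.78 for LM9, and without the tumour labelled HR1 replicate 1, the lowest of the 3, these were -2.33 and -9.08.

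Gask1b fell in the same order as Srpx2. HR1 tumours had 260, 236 and 291 CPM, with the tumour labelled HR1 replicate 1 between the other two. The LM1 tumours had 35.4, 36.9 and 43.7 CPM and LM9 tumours 10.9, 5.91 and 16.7 CPM. No tumour of a model reached the range of another model, and the LM9 tumours were the most variable of the 3 groups, with a spread of 2.83-fold. Gask1b was 3.45-fold lower in LM9 than in LM1 (log2 fold change -1.79 ± 0.32 SE, adjusted p = 0.00693 by edgeR), and the fitted log2 difference from HR1 was -2.76 in LM1 and -4.55 in LM9. The antisense gene Gm36569 shares 711 bases (7.41%) of its exons, with the same limit on strand.

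Slc44a2 was lowest in LM1. Its level in HR1 was 77.3 CPM in the tumour labelled HR1 replicate 1, the highest, and 63.8 and 51.1 CPM in replicates 2 and 3. LM1 tumours had 9.30, 9.99 and 12.6 CPM, and LM9 tumours 23.6, 25.4 and 22.6 CPM. The models did not overlap, and LM9 lay between LM1 and HR1. Slc44a2 was 2.24-fold higher in LM9 than in LM1 (log2 fold change 1.16 ± 0.19 SE, adjusted p = 0.00471 by edgeR). The fitted log2 difference from HR1 was -2.59 in LM1 and -1.42 in LM9.

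Pde2a had its highest level in LM1. The HR1 tumours had 61.5, 27.6 and 37.7 CPM, again with the tumour labelled HR1 replicate 1 as the highest. LM1 tumours had 467, 522 and 574 CPM, and LM9 tumours 306, 364 and 302 CPM. HR1 lay well below both other models, at log2 differences of 3.62 to LM1 and 2.94 to LM9, which were 4.0 and 3.31 without the tumour labelled HR1 replicate 1. The difference between LM9 and LM1 did not pass the test, although the 3 LM9 tumours lay below all LM1 tumours (log2 fold change -0.69 ± 0.26 SE, normal 95% interval -1.20 to -0.17, adjusted p = 0.0934 by edgeR). It passed in the fit without the tumour labelled HR1 replicate 1 (log2 fold change -0.69, adjusted p = 0.00421) and in a fit of the 6 LM tumours alone (log2 fold change -0.69, adjusted p = 0.0005 by edgeR), since the spread among HR1 tumours enters the shared estimate of error. In the GENCODE annotation, used here for exon lengths, Pde2a begins further upstream than in the RefSeq table. In that annotation it shares 150 bases (2.37%) of its exons with Arap1 on the same strand. Arap1 had 68.9 CPM in HR1, 65.0 CPM in LM1 and 61.1 CPM in LM9.

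**Figure D1:**
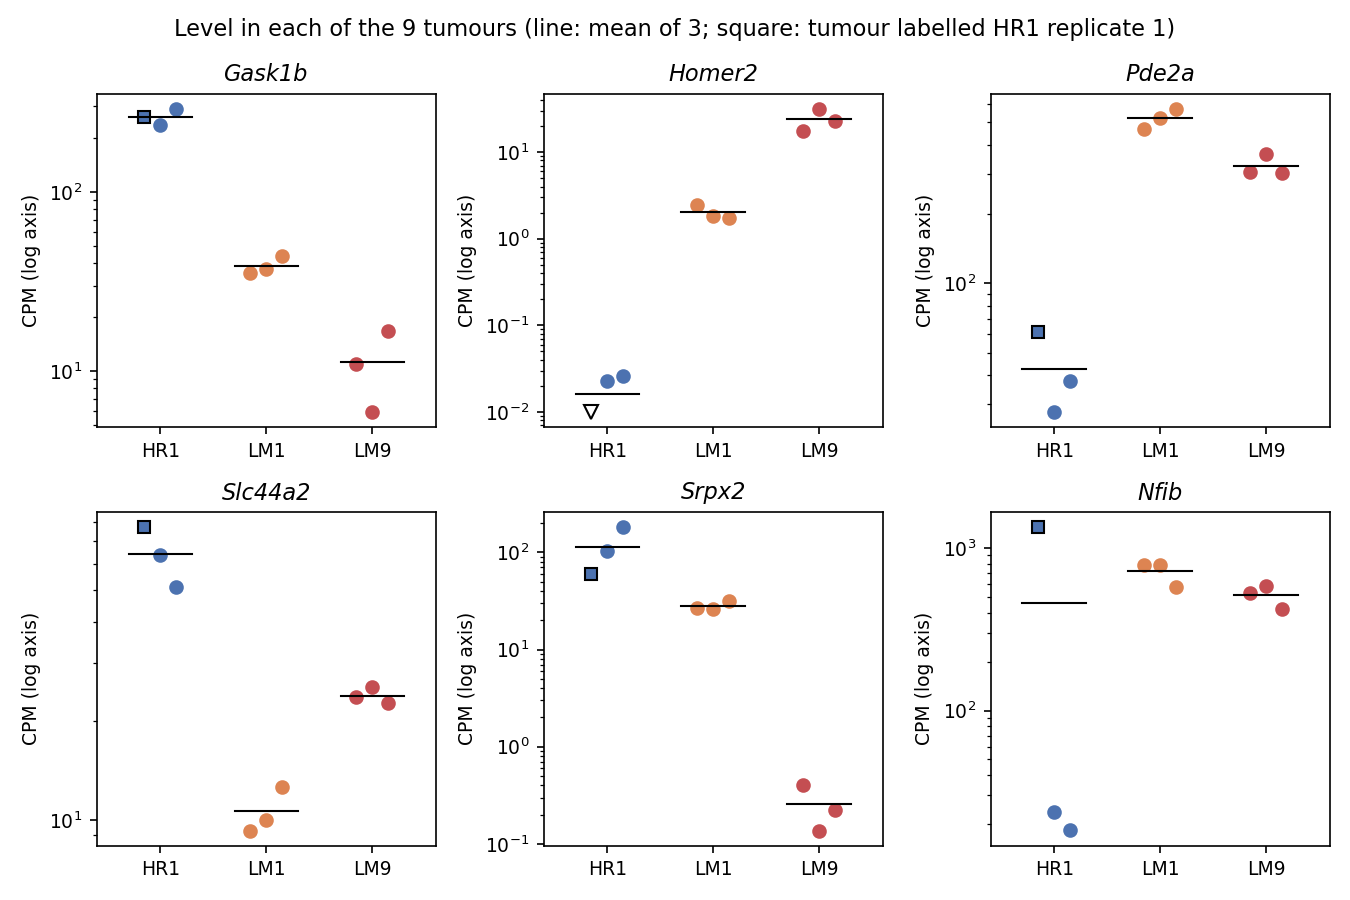
Levels in CPM on log axes of the 5 genes and Nfib in each of the 9 tumours, with a line at the mean of the 3 tumours of a model, a black-edged square for the tumour labelled HR1 replicate 1 and an open triangle, placed at an arbitrary height, for its 0 counts of Homer2. The 5 genes were chosen with this tumour counted as HR1, so its place with HR1 replicates 2 and 3 follows from the choice; in Nfib it lies above all other tumours at 1343 CPM.

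Of the 5 genes, 4 passed the test between LM9 and LM1, where 22.0% of the 14086 tested genes did. Homer2 and Slc44a2 were higher in LM9, a direction in which 11.5% of tested genes passed, and Gask1b and Srpx2 were lower, where 10.6% passed. All 5 had tumours that did not overlap between LM9 and LM1, as 63.0% of tested genes did. A two-sided exact permutation test on single genes gave p = 0.1 for each of the 5, the smallest that 3 against 3 tumours allow. The call of Gask1b, Homer2, Slc44a2 and Srpx2 held in each of the 9 fits that left out 1 tumour, with a highest adjusted p of 0.0373 for Gask1b. This contrast is not wholly free of the choice, as the same estimate of spread enters the ranking and the test.

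By the means of the models Nfib had the order of Pde2a, lowest in HR1 and highest in LM1, but its HR1 tumours spanned 18.3 to 1343 CPM, a range that held all LM1 and LM9 tumours. It had 786, 791 and 579 CPM in LM1 and 532, 583 and 421 CPM in LM9. Nfib passed neither against HR1 (log2 fold change 0.39, adjusted p = 0.802 by edgeR) nor between LM9 and LM1 (log2 fold change -0.49, adjusted p = 0.812 by edgeR). Without the tumour labelled HR1 replicate 1 it was higher in LM1 and LM9 than in HR1 (log2 fold change 4.85, adjusted p = 4.6e-07 by edgeR) and lower in LM9 than in LM1 (log2 fold change -0.49, adjusted p = 0.0399 by edgeR). That tumour was set apart by its Nfib level, so the fit without it is not an independent test of Nfib. The tumour labelled HR1 replicate 1, with more Nfib than any LM tumour, had 260 CPM of Gask1b, 59.4 CPM of Srpx2, 77.3 CPM of Slc44a2, 61.5 CPM of Pde2a and 0 counts of Homer2. These values lay on the HR1 side of every LM1 and LM9 tumour, which the choice of the genes fixed in part, as it counted this tumour as HR1. Col1a2 was not so chosen and is named after its values were seen. It had 44.2 CPM in this tumour, 1472 and 2725 in the other HR1 tumours and 35.0 to 73.2 CPM in the LM tumours. Within the same fibroblast list Postn and Col3a1 were likewise lower in this tumour than in the other HR1 tumours. Dcn, Pdgfra, Lum, Dpt, Pdgfrb, Col1a1 and Fap were higher in it than in any other tumour.

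Set per length of exon, the 5 genes took very different places among their paralogs. Levels here are CPM per kilobase of the exon union, averaged over the 3 tumours of a model. Homer3, another scaffold of the family, was the most abundant Homer transcript in all models, at 18.2 per kilobase in HR1, 10.7 in LM1 and 10.2 in LM9. Homer1 stood at 0.462, 0.759 and 0.875. Homer2 stood at 0.00127, 0.160 and 1.90, below Homer1 in all LM1 tumours and above it in all LM9 tumours. Its share of the summed Homer level was 1.37% ± 0.24 (SD, n = 3) in LM1 and 14.6% ± 4.15 (SD, n = 3) in LM9. Homer1 and Homer3 did not pass the test between LM9 and LM1 (log2 fold changes 0.21 and -0.07, adjusted p = 0.622 and 0.849 by edgeR).

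Among 14 phosphodiesterase genes tested, Pde2a had the highest mean level per length in every model. In HR1 it stood at 6.68 CPM per kilobase, 1.99 times the next gene by mean, Pde7b, which had 8.26 in the tumour labelled HR1 replicate 1 and 1.32 and 0.511 in the others. Without that tumour Pde2a stood at 5.16, 1.60 times the next gene, Pde1b, and in HR1 replicate 2 Pde1b (4.75) was above Pde2a (4.36). In LM1 it stood at 82.3, 28.1 times the next gene, Pde7a, and in LM9 at 51.2, 24 times Pde7a. Its share of the summed phosphodiesterase level was 26.9% ± 5.73 in HR1, 88.3% ± 1.77 in LM1 and 88.2% ± 1.40 in LM9 (SD, n = 3 each). Pde2a thus made up nearly the same share in LM1 and LM9, with ranges of 86.9 to 90.3% and 86.8 to 89.6% that overlapped.

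The Gask1 pair moved in opposite directions from HR1. Gask1a, the other Golgi-associated kinase of the pair, had 36, 1 and 0 counts in the HR1 tumours, of which the 36 were in the tumour labelled HR1 replicate 1. In CPM it had 7.77, 9.67 and 10.7 in LM1 and 5.69, 2.86 and 4.66 in LM9. It rose in LM1 and LM9 against HR1 (log2 fold change 4.05, adjusted p = 0.0244 by edgeR, and 8.76, adjusted p = 5.1e-06, without the tumour labelled HR1 replicate 1). Between LM9 and LM1 it did not pass (log2 fold change -1.09, adjusted p = 0.498 by edgeR), but was lower in LM9 without that tumour (log2 fold change -1.09, adjusted p = 0.0136 by edgeR). Gask1b made up 99.6% ± 0.64 of the summed pair in HR1, 62.5% ± 2.07 in LM1 and 49.4% ± 8.51 in LM9 (SD, n = 3 each). In LM9 the pair thus stood at 1.17 and 1.14 CPM per kilobase for Gask1b and Gask1a.

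Slc44a1, the general choline transporter of the SLC44 family, was the most abundant member per length in all models, at 15 CPM per kilobase in HR1, 13.2 in LM1 and 15.2 in LM9. Slc44a2 was 2.03 times lower than Slc44a1 in HR1, 10.8 times lower in LM1 and 5.54 times lower in LM9. Slc44a1 did not pass in either comparison (log2 fold change -0.08 and adjusted p = 0.725 against HR1, log2 fold change 0.20 and adjusted p = 0.47 between LM9 and LM1, both edgeR). Slc44a3, a further family member, had 0.231 CPM per kilobase in HR1, 1.70 in LM1 and 0.964 in LM9, and rose against HR1 (log2 fold change 2.49, adjusted p = 0.0419 by edgeR, and 4.63, adjusted p = 3.2e-05, without the tumour labelled HR1 replicate 1). It did not pass without HR1 replicate 2 or 3 (adjusted p = 0.106 and 0.0516 by edgeR). Slc44a3 stood at 0.592 in the tumour labelled HR1 replicate 1 and at 0.0757 and 0.0254 in the other HR1 tumours.

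Srpx, the paralog of Srpx2, was scarce in all tumours, at 0.736 CPM per kilobase in HR1, 0.497 in LM1 and 0.218 in LM9. Srpx2 was 53.3 times as abundant as Srpx in HR1 and 19.4 times in LM1. In LM9 the order turned, with Srpx2 at 0.0879 CPM per kilobase, 2.48 times lower than Srpx. Srpx did not pass the test between LM9 and LM1 (log2 fold change -1.18, adjusted p = 0.118 by edgeR), but was lower in LM9 without the tumour labelled HR1 replicate 1 (log2 fold change -1.19, adjusted p = 0.0148 by edgeR). Against HR1 it was lower in LM1 and LM9 (log2 fold change -1.16, adjusted p = 0.0456 by edgeR). It did not pass without HR1 replicate 2 or 3 (adjusted p = 0.164 and 0.113 by edgeR).

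**Figure D2:**
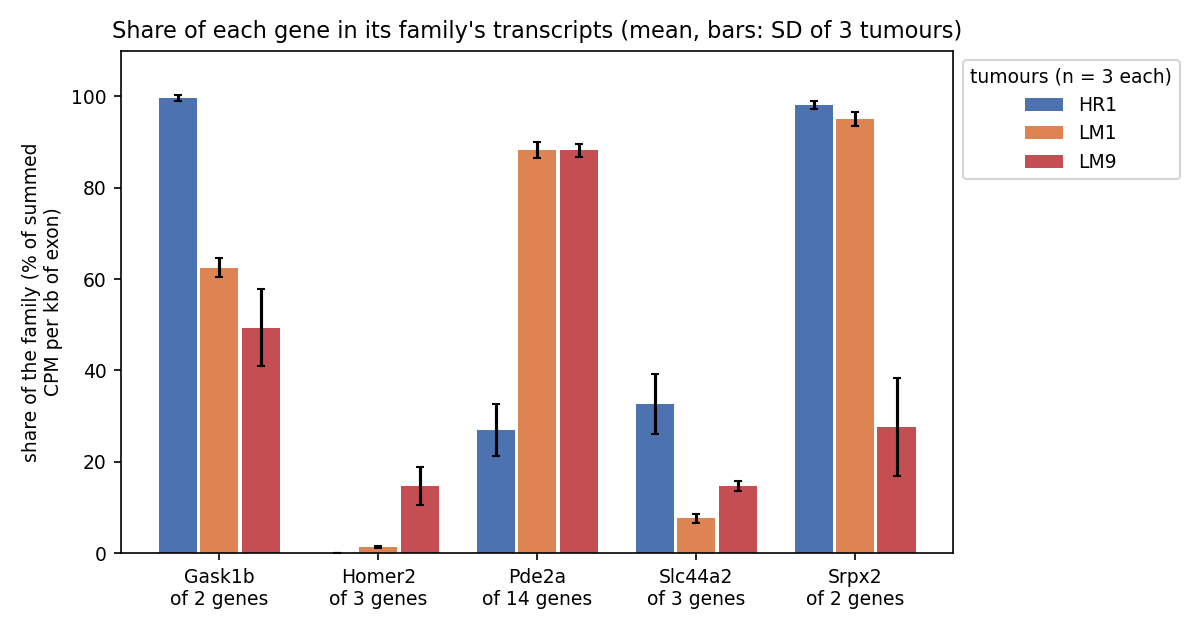
Share of each gene in its family as the percentage of the summed CPM per kilobase of exon over the family members tested, by model; bars are means and error bars the SD of 3 tumours. Gask1b falls from 99.6% to 49.4% and Srpx2 from 98.1% to 27.6% between HR1 and LM9, Pde2a rises from 26.9% to above 88%, and Homer2 reaches 1.37% in LM1 and 14.6% in LM9.

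Genes that work with the 5 were taken from 5 lists of paralogs and pathway partners with 123 genes in all, of which 95 were tested. Between LM9 and LM1, 15 were higher and 12 lower, or 28.4% against the 22.0% of all genes. Against HR1, 12 were higher and 25 lower in LM1 and LM9, or 38.9%, where 43.6% of all genes passed (19.9% higher and 23.6% lower). Without the tumour labelled HR1 replicate 1, 56 of the 95 passed between LM9 and LM1, where 45.5% of all genes did, and 55 passed against HR1, where 56.0% did. The counts of partner genes thus depended on that tumour.

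Of 16 tested Homer partners, 5 were higher and 1 lower in LM9 than in LM1, with a median log2 fold change of 0.64 where that of all genes was 0.00, and 8 were higher and 2 lower without the tumour labelled HR1 replicate 1. Itpr2, an IP3 receptor that Homer proteins bind, had 10.6 CPM in LM1 and 36.2 CPM in LM9 (log2 fold change 1.77 ± 0.25 SE, adjusted p = 0.00275 by edgeR). Trpc1, a cation channel linked to IP3 receptors by Homer, was 1.64 CPM in LM1 and 5.49 CPM in LM9 (log2 fold change 1.74, adjusted p = 0.0351 by edgeR). Nfatc4, a calcineurin-dependent transcription factor, was the 1 lower gene, at 34.2 CPM in LM1 and 11.1 CPM in LM9 (log2 fold change -1.62, adjusted p = 0.00839 by edgeR), and it was also lower in LM1 and LM9 than in HR1, where it had 118 CPM (adjusted p = 0.00015). Against HR1, 3 Homer partners were higher and 3 lower, and 5 and 5 without that tumour.

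Of 32 tested cyclic nucleotide genes listed with Pde2a, 5 were higher and 8 lower in LM9 than in LM1, with a median log2 fold change of -0.26, and 8 were higher and 12 lower without the tumour labelled HR1 replicate 1. Among those that passed, Prkg1, Pde9a and Npr2 had the largest differences. The adenylyl cyclase gene Adcy5, with a fitted log2 fold change of -5.88, missed the threshold (adjusted p = 0.0589 by edgeR, and 0.01 without the tumour labelled HR1 replicate 1). Prkg1, the type I cGMP-dependent kinase, had 1.30, 2.63 and 2.41 CPM in LM1 and 1, 0 and 1 counts in LM9, so that the summed counts were 140 times higher in LM1 (95% exact counting interval 38.4 to 1164; adjusted p = 0.00407 by edgeR). Pde9a, a cGMP-specific phosphodiesterase, had 8.54 CPM in LM1 and 0.155 CPM in LM9 (log2 fold change -5.76 ± 1.57 SE, adjusted p = 0.0324 by edgeR). Npr2, a receptor guanylyl cyclase, had 2.42 CPM in LM1 and 0.0669 CPM in LM9 (log2 fold change -5.12 ± 0.52 SE, adjusted p = 0.00071 by edgeR). Chosen after the values were seen, Npr1, the related receptor cyclase, and Prkg2, the type II kinase, moved the other way, from 0.344 to 1.87 CPM and from 6.29 to 28.1 CPM (log2 fold changes 2.44 and 2.16, adjusted p = 0.00582 and 0.0293 by edgeR). Pde9a had 27.9 CPM in the tumour labelled HR1 replicate 1 and 1.69 and 0.180 CPM in the other HR1 tumours.

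Among the other phosphodiesterases, Pde4d, which is specific to cAMP, was lower in LM9 than in LM1 (log2 fold change -1.03, adjusted p = 0.0197 by edgeR) and Pde4a was higher (log2 fold change 1.72, adjusted p = 0.0249 by edgeR). Against HR1, Pde4b and Pde5a rose in LM1 and LM9, with log2 fold changes of 1.41 and 1.05. The 6 that fell were Pde1b, Pde3b, Pde7b, Pde8a, Pde9a and Pde10a, with log2 fold changes from -5.13 for Pde1b to -1.85 for Pde10a. For Pde7b and Pde9a this rested on the tumour labelled HR1 replicate 1. Pde7b had 103 CPM there, 16.4 and 6.36 CPM in the other HR1 tumours and 10.1 CPM in LM1, and without that tumour its log2 fold change was -0.88 (adjusted p = 0.0975 by edgeR). Pde9a without it stood at 0.934 CPM in HR1, below the 8.54 CPM of LM1, with a log2 fold change of 0.30 (adjusted p = 0.711 by edgeR). The other 4 also passed without that tumour, with log2 fold changes from -5.68 for Pde1b to -2.24 for Pde10a, and so did Pde4b and Pde5a. The remaining Pde1a, Pde3a and Pde7a passed in neither comparison. Without the tumour labelled HR1 replicate 1, Pde1a, Pde7a and Pde7b were lower in LM9 than in LM1 (log2 fold changes -3.96, -0.46 and -1.45, adjusted p = 0.00594, 0.0363 and 0.026 by edgeR). Pde1b and Pde10a were then higher (log2 fold changes 2.89 and 0.90, adjusted p = 0.0137 and 0.00365 by edgeR), and Pde4a was lower than in HR1 (log2 fold change -1.12, adjusted p = 0.0199 by edgeR). Over the whole list 3 genes rose and 11 fell against HR1, the third riser being Rapgef3, a cAMP-activated exchange factor; without the tumour labelled HR1 replicate 1 these counts were 4 and 15.

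Of 19 tested choline and phosphatidylcholine genes, 4 were higher and 1 lower in LM9 than in LM1, with a median log2 fold change of 0.20, and 8 were higher and 5 lower without the tumour labelled HR1 replicate 1, where 45.5% of all genes passed. Pcyt1b, an isoform of the enzyme that sets the rate of phosphatidylcholine synthesis, had 1.76, 1.68 and 1.02 CPM in LM1 and 10.7, 14.4 and 15.5 CPM in LM9 (log2 fold change 3.19 ± 0.59 SE, adjusted p = 0.00742 by edgeR). Chka, the choline kinase of the first step, had 42.0, 41.0 and 35.9 CPM in LM1 and 100.5, 106 and 92.5 CPM in LM9 (log2 fold change 1.33 ± 0.29 SE, adjusted p = 0.0138 by edgeR). Gpcpd1, which acts on glycerophosphocholine, rose by 1.12 on the log2 scale (adjusted p = 0.0116 by edgeR). The fourth was Chpt1, the choline phosphotransferase of the last step, and the lower gene was Lypla1. In these 4 genes LM9 was above LM1, as it was for Slc44a2. Against HR1, the average of LM1 and LM9 was higher for Pcyt1b and Chka (log2 fold changes 2.06 and 0.87, adjusted p = 0.0131 and 0.0224 by edgeR), but only LM9 stood apart. The HR1 tumours had 1.86, 1.10 and 0.283 CPM of Pcyt1b and 18.7, 36.7 and 47.4 CPM of Chka, ranges that overlapped those of LM1. Slc44a2 was lower than HR1 in both models.

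Of the 11 tested secretory pathway kinases other than Gask1b, 0 passed between LM9 and LM1 by edgeR (1 at an unadjusted p under 0.05, and 0 by DESeq2 or limma-voom), and 5 passed without the tumour labelled HR1 replicate 1. Against HR1, Gask1a was higher in LM1 and LM9, and Fam20c, Pomk and Dipk1b were lower. Fam20c did not pass without that tumour (log2 fold change -0.70, adjusted p = 0.12 by edgeR), nor Dipk1b without HR1 replicate 2 or 3 (adjusted p = 0.0592 and 0.0981). Without the tumour labelled HR1 replicate 1, 3 were higher and 3 lower against HR1. Fjx1 and Dipk2a were then higher (log2 fold changes 0.99 and 1.12, adjusted p = 0.00415 and 0.0108 by edgeR). Fam20b was then lower (log2 fold change -0.35, adjusted p = 0.0124 by edgeR). Of 17 tested Srpx2 partners, 1 was higher and 2 lower in LM9 than in LM1, and 3 were higher and 5 lower without that tumour. Ctsb, the lysosomal protease cathepsin B, had 1462 CPM in LM1 and 2598 CPM in LM9 (log2 fold change 0.83, adjusted p = 0.0265 by edgeR). Svep1, a large secreted sushi-domain protein, had 18.6 CPM in HR1, 1.06 CPM in LM1 and 0.222 CPM in LM9 (log2 fold change -2.23 between LM9 and LM1, adjusted p = 0.0224 by edgeR), the same order as Srpx2. Csmd2, a membrane sushi-domain protein, had 0 counts in all HR1 tumours, 0.693, 0.770 and 0.864 CPM in LM1 and 1 count in LM9, so that the summed counts were 104 times higher in LM1 than in LM9 (95% exact counting interval 18.2 to 4138; adjusted p = 0.00495 by edgeR). The urokinase receptor Plaur, which SRPX2 binds, did not pass in either comparison (77.1, 99.9 and 105 CPM in HR1, LM1 and LM9).

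**Figure D3:**
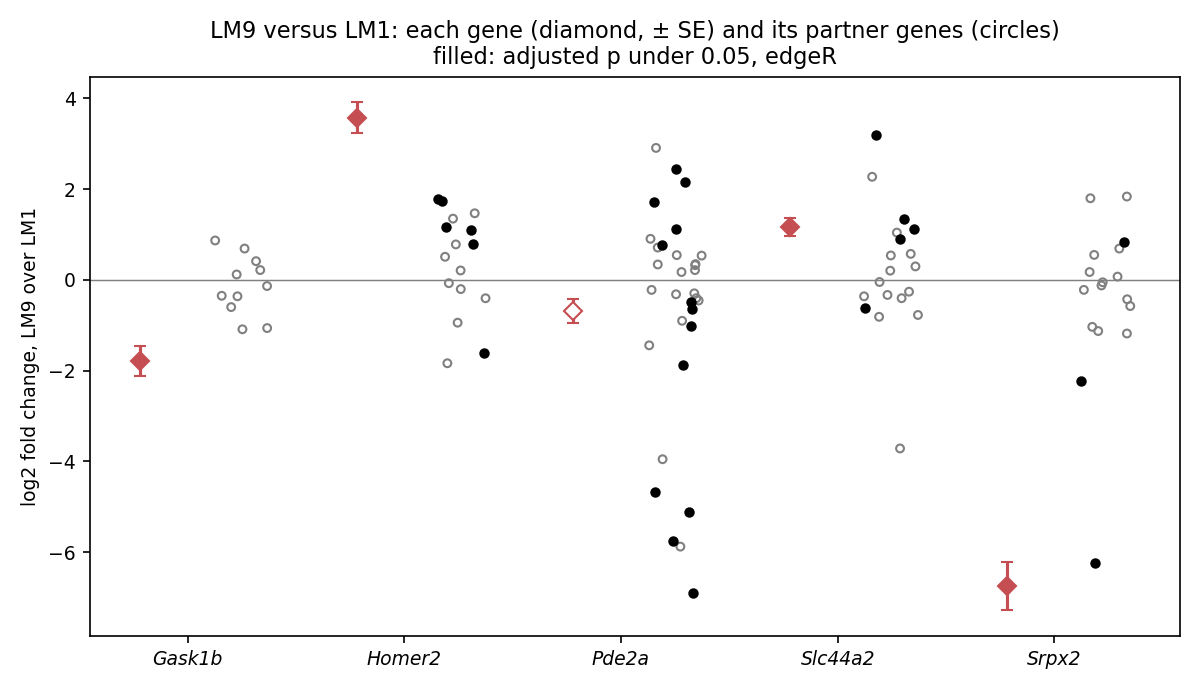
Log2 fold change of LM9 over LM1 for each of the 5 genes (red diamonds, error bars are SE) and for the tested genes of its partner list (circles, spread sideways for legibility). Filled symbols passed an adjusted p of 0.05 in edgeR; Srpx2 at -6.75 and Homer2 at 3.57 lie outside the range of their own partner lists, and no partner of Gask1b is filled.

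Genes next to the 5 on their chromosomes differed in whether they moved with them. The 3 nearest tested protein-coding genes on either side were taken, 30 genes in all, at distances given between gene midpoints. Between LM9 and LM1, 7 of the 30 passed, where 22.0% of all genes did, and against HR1 18 passed, where 43.6% did; without the tumour labelled HR1 replicate 1 these were 14 and 20, where 45.5% and 56.0% of all genes passed. All 6 neighbours of Slc44a2 lay within 129 kb, and their log2 fold changes against HR1 ran from 0.14 to 0.89, while Slc44a2 stood at -2.01. Kri1, Cdkn2d and Qtrt1 were among those that passed and were higher, the opposite direction. However, Qtrt1 did not pass without the tumour labelled HR1 replicate 1 or without HR1 replicate 2 (adjusted p = 0.0631 and 0.0798 by edgeR). Cdkn2d did not pass without HR1 replicate 2 or 3 (adjusted p = 0.135 and 0.0725 by edgeR). Between LM9 and LM1, 4 of the 6 passed. Kri1 and Dnm2 were higher in LM9, as Slc44a2 was (log2 fold changes 0.52 and 0.43, against 1.16 for Slc44a2), and Atg4d and Qtrt1 were lower (log2 fold changes -0.47 and -0.49).

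The neighbours of Homer2 and Pde2a (at most 310 and 381 kb away) went both ways against HR1, with log2 fold changes from -3.75 to 1.52 beside Homer2 and from -1.77 to 0.51 beside Pde2a. Whamm, the nearest neighbour of Homer2 at 70.0 kb, had 5.99 CPM in HR1, 13.4 CPM in LM1 and 22.0 CPM in LM9, the order of Homer2. It passed against HR1 (log2 fold change 1.52, adjusted p = 0.00139 by edgeR) but not between LM9 and LM1 (log2 fold change 0.72, adjusted p = 0.0738 by edgeR, and 0.00776 without the tumour labelled HR1 replicate 1). Btbd1 was the 1 neighbour of Homer2 that passed between LM9 and LM1 with all tumours, and it was lower in LM9 (log2 fold change -0.81, adjusted p = 0.048 by edgeR). Cpeb1 and 3110040N11Rik beside Homer2 were lower in LM1 and LM9 than in HR1. Beside Pde2a, Inppl1 was higher in LM1 and LM9 than in HR1 (log2 fold change 0.51, adjusted p = 0.0111 by edgeR) and Folr2 was lower (log2 fold change -1.77, adjusted p = 0.0056 by edgeR). Stard10 beside Pde2a had 98.6 CPM in the tumour labelled HR1 replicate 1 and 9.61 and 8.85 CPM in the other HR1 tumours. Its log2 fold change against HR1 was -1.13 (adjusted p = 0.205 by edgeR) with that tumour and 0.96 (adjusted p = 0.00074) without it, and without it Stard10 was also lower in LM9 than in LM1 (log2 fold change -1.05, adjusted p = 0.00055 by edgeR).

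The neighbours of Srpx2 behaved differently from each other. Tspan6, a tetraspanin gene 24.3 kb away, had 0.465, 11.1 and 19.5 CPM in HR1, the lowest being the tumour labelled HR1 replicate 1. It had 0.462, 0.566 and 0.356 CPM in LM1 and 0, 0 and 2 counts in LM9. Sytl4, a gene of vesicle transport 38.7 kb away on the other side, had 3, 15 and 3 counts in HR1, 3.38, 2.99 and 2.79 CPM in LM1 and 3, 2 and 1 counts in LM9. Sytl4 was lower in LM9 than in LM1 (log2 fold change -6.01, adjusted p = 0.00126 by edgeR), and Tspan6 missed the threshold (adjusted p = 0.0566), with summed counts 31.3 times higher in LM1 (95% exact counting interval 8.31 to 265). Tspan6 passed without the tumour labelled HR1 replicate 1 (log2 fold change -4.72, adjusted p = 0.00073 by edgeR). Srpx2 and the nearest tested gene on either side had their lowest mean level in LM9. Sytl4 also had few counts in HR1, however, and was highest in LM1, unlike Srpx2. Cstf2, 153 kb away, had 102 CPM in LM1 and 91.7 CPM in LM9 (log2 fold change -0.15, adjusted p = 0.518 by edgeR). Farther out on the other side, Pcdh19 was also lower in LM9 than in LM1 (log2 fold change -0.86, adjusted p = 0.0264 by edgeR). Diaph2 and Trmt2b went the other way and did not pass (log2 fold changes 0.64 and 0.55, adjusted p = 0.0552 and 0.0539 by edgeR). Both passed without the tumour labelled HR1 replicate 1 (adjusted p = 0.0219 and 0.0233 by edgeR).

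Of the 6 neighbours of Gask1b, 5 moved with it against HR1. Tmem144, Glrb, Pdgfc, Ctso and Etfdh passed and were lower in LM1 and LM9 than in HR1, with log2 fold changes between -2.07 for Glrb and -0.48 for Etfdh, against -3.66 for Gask1b. For Tmem144, the nearest, this rested on HR1 replicate 2, which had 15.3 CPM where the other HR1 tumours had at most 2.50 CPM, and without it the log2 fold change was -0.09 (adjusted p = 0.852 by edgeR). They lay 82.7 to 2029 kb away. The remaining neighbour, 4930579G24Rik, went the other way and did not pass (log2 fold change 0.39, adjusted p = 0.163 by edgeR), but was higher without the tumour labelled HR1 replicate 1 (log2 fold change 0.74, adjusted p = 0.00072 by edgeR). Between LM9 and LM1, 0 of the 6 passed by edgeR (1 at an unadjusted p under 0.05, and 1 each by DESeq2 and limma-voom). Without that tumour 4930579G24Rik and Glrb passed and were lower in LM9, as Gask1b was (log2 fold changes -0.67 and -1.12, adjusted p = 0.00158 and 0.00203 by edgeR).

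**Figure D4:**
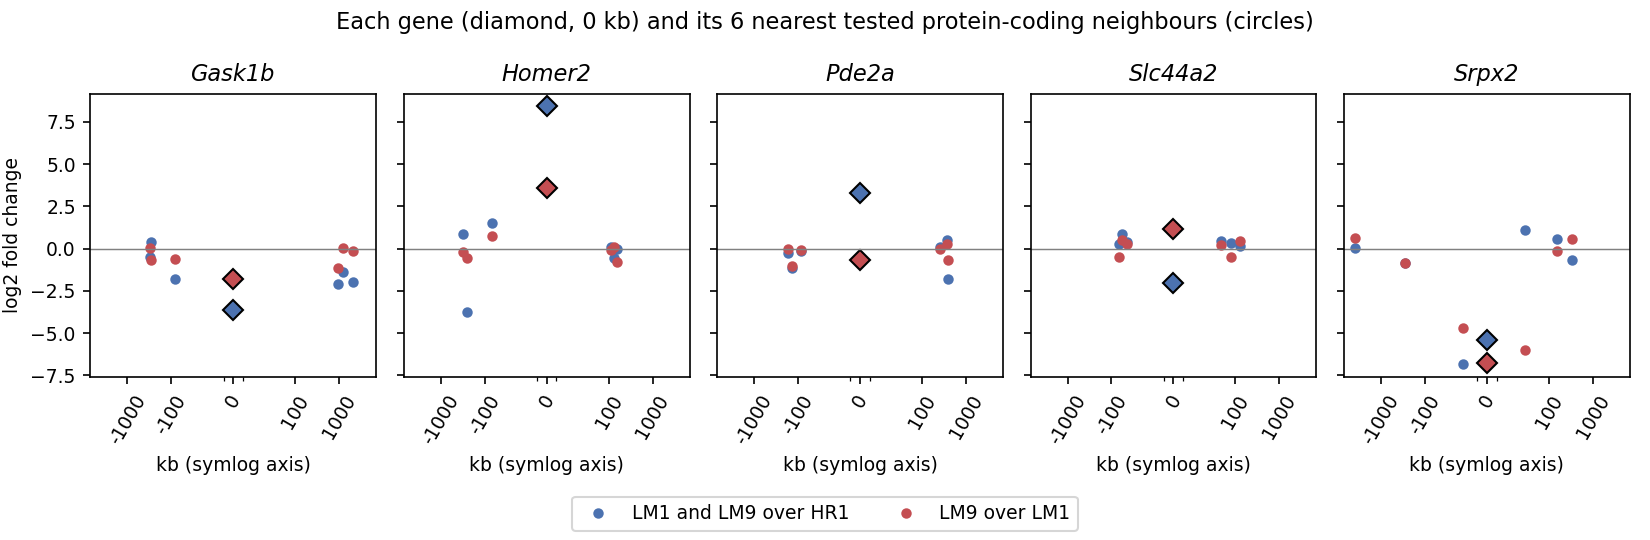
Log2 fold change of each of the 5 genes (diamonds at 0 kb) and of its 6 nearest tested protein-coding neighbours (circles) against the distance between midpoints on a symlog axis, in blue for LM1 and LM9 over HR1 and in red for LM9 over LM1. The red circles beside Srpx2 at -4.70 and -6.01 are Tspan6 and Sytl4; the circles around Slc44a2 stay within 0.89 of 0, and the blue diamond of Homer2 is a fitted value that rests on 2 counts in HR1.

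Genes with the most similar pattern were ranked by Pearson correlation of log2(CPM + 0.5) over the 9 tumours among 12376 genes of at least 1 CPM on average. With 3 models the 9 points fall into 3 clusters, so these values describe the order of the models, share the libraries and carry no test. For Homer2 they were Gm13544, Cyb5r2 and the transcription factor gene Sox5 (r = 0.990, 0.990 and 0.989). For Srpx2 they were Tmem184c, the smooth muscle actin gene Acta2 and the laminin subunit gene Lama4 (r = 0.988, 0.987 and 0.986). Acta2 had 343 CPM in HR1, 67.4 CPM in LM1 and 1.09 CPM in LM9, and Lama4 67.7, 26.6 and 0.344 CPM. For Gask1b they were the ephrin receptor gene Ephb3, Prxl2b and Rab3il1 (r = 0.989, 0.986 and 0.981). For Slc44a2 they were Gabarapl1, an autophagy gene, Ubxn6 and Ikbkg, the regulatory subunit of the IKK complex (r = 0.995, 0.994 and 0.994), and Gabarapl1 had 185 CPM in HR1, 70.3 CPM in LM1 and 110.2 CPM in LM9. For Pde2a they were the interleukin 15 receptor gene Il15ra and the mitotic genes Ska3 and Kif22 (r = 0.997, 0.995 and 0.993). Without the tumour labelled HR1 replicate 1 these 15 correlations ran from 0.980 to 0.998 over 8 tumours.

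Markers of other cell types moved with some of these differences, and their part in the results was not tested. Srpx2, Gask1b and Slc44a2 were lower in LM1 and LM9 than in HR1, and so were 9 of the 10 fibroblast markers and 8 of the 11 leukocyte markers listed; none of either list was higher. Without the tumour labelled HR1 replicate 1 these were 7 of 10, with Dcn and Fap no longer passing, and 8 of 11. Dcn had 17605 CPM in that tumour, 432 and 329 CPM in the other HR1 tumours and 562 to 645 CPM in LM1. Of the 7 epithelial markers 3 were lower and 0 higher against HR1, with and without that tumour. Between LM9 and LM1, 3 epithelial and 2 fibroblast markers were lower and 1 leukocyte marker, Cd68, was higher; without that tumour 4 epithelial and 6 fibroblast markers were lower and 1 of each was higher. Pde2a is also known from endothelial cells. The endothelial list summed to 11.6 to 39.9 CPM in HR1, 167 to 230 CPM in LM1 and 261 to 298 CPM in LM9 over 9 genes, and 2 of these were higher and 6 lower in LM1 and LM9 than in HR1. The 2 were Cdh5 and Kdr, while the defining marker Pecam1 had 1.18 to 6.42 CPM in HR1 and 0.383 to 1.25 CPM in the LM tumours.

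At the read length of 50 bases, few windows of the 5 genes were shared with transcripts of other genes compared in the sense direction. The antisense genes Gm44570 and Gm36569, which share exon bases with Homer2 and Gask1b, are not covered by this comparison. Whether the counting used strand is not given. Of all 50-base windows in their annotated transcripts, 0 of 12731 for Homer2 and 0 of 2918 for Srpx2 occurred in a transcript of another gene. The share was 0.198% for Gask1b, 0.219% for Slc44a2 and 1.61% for Pde2a, the last all with Arap1.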

How the data were processed

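Each of the 9 tumours had 1 table of gene counts. Per the labels and the study's methods, the authors aligned stranded single-end reads of 50 nt to mm10 with STAR and deposited whole-number counts of read 5′ ends over the exon union of each gene, by QuasR; the strand setting and the filter that left 14108 genes are not given in the sources used here. Entrez identifiers were matched to RefSeq symbols. Exon lengths and exon overlaps between genes were taken from the GENCODE annotation of GRCm38. The 5 genes, the partner and marker lists and the comparisons were chosen with earlier results of these data known.

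Counts were fitted in edgeR 4.0.16 (R 4.3.3) with TMM factors, filterByExpr (14086 genes left), robust quasi-likelihood and 1 model of 3 groups; an adjusted p under 0.05 passed. The standard error is the log2 fold change over the root of the F statistic. limma-voom, the study's method, and DESeq2 1.42.0 were alternatives, with other scalings, filters and each tumour left out. On simulated counts, edgeR recovered 74.5% of 200 genes changed by a log2 of 2 between LM9 and LM1, with 2.61% false calls. Nothing says whether tumours of a model came from separate cell cultures, so p-values measure the spread between these tumours. Named beside the 5 genes and Nfib were their same-family paralogs, the 3 largest called differences of each partner list between LM9 and LM1, the 3 most similar genes and the 3 nearest neighbours on each side; other names illustrate a count. No 2 tumours of a model agreed within sampling noise.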

Additional observations from a re-analysis of the deposited data

How the results depend on the processing

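Gask1b, Homer2, Slc44a2 and Srpx2 kept their direction and their call between LM9 and LM1 under all 9 other settings and all 9 fits without 1 tumour. Without 1 tumour their log2 fold changes ran from -2.20 to -1.51, 3.28 to 3.75, 1.08 to 1.31 and -7.25 to -6.49. Pde2a, not called in the reported fit, ran from -0.81 to -0.61 without 1 tumour. It passed by edgeR without the tumour labelled HR1 replicate 1 (adjusted p = 0.00421), without HR1 replicate 2 (adjusted p = 0.04) and among the 6 LM tumours alone (log2 fold change -0.69, adjusted p = 0.0005). The descriptive differences of LM1 and LM9 from HR1 kept their sign throughout. Homer2 was 7.94 with limma-voom and 8.02 to 8.74 without 1 tumour, Pde2a 3.05 to 3.66 and Srpx2 -5.70 to -4.90; Homer2 rests on 2 counts in HR1. The count of partner genes called between LM9 and LM1 was 27 as reported, 67 among the 6 LM tumours, 56 without the tumour labelled HR1 replicate 1 and 10 to 15 when 1 LM1 or LM9 tumour was left out, which leaves a pair of tumours in that model. The replicate numbers do not pair the tumours (correlations of same-numbered deviations from -0.12 to 0.16), and with the number as a replicate block Gask1b, Homer2, Slc44a2 and Srpx2 kept their calls (log2 fold changes -1.88, 3.53, 1.16 and -6.75, adjusted p = 0.0094, 0.00524, 0.0185 and 0.00281 by edgeR). Over all genes, 3102 passed between LM9 and LM1 as reported, 1150 to 6413 without 1 tumour, 7709 among the 6 LM tumours, 2295 with the block, and 4304 with DESeq2; against HR1, 6138 passed, and 4928 to 7902 without 1 tumour.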
